A study of Homo sapiens with 3 samples.

Results

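Mediator is the large assembly that sits between DNA-bound transcription factors and RNA polymerase II at promoters and enhancers. Its head module contacts the polymerase, its middle module connects the head to the rest of the complex, and MED14 is the scaffold that runs along all of them. The tail module is where most activators bind, and the separable kinase module, which holds Cyclin C, a CDK8 or CDK19 kinase, MED12 and MED13, docks on the middle and regulates entry of the polymerase. ZBTB11 is a zinc finger and BTB domain protein and a putative transcription factor, and its occupancy was examined here at the genes that encode Mediator.

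The 33 Mediator genes were taken by name from the 20033 protein-coding genes of GENCODE release 44 on the main chromosomes (hg38). They comprised 7 head, 9 middle, 9 tail and 7 kinase genes and the scaffold MED14. For each gene, the ZBTB11 peak with the largest −log10 p was selected among all peaks within 3 kb of any of its transcript start sites (TSSs), so that the peak values below were selected on their own size. The list of genes was also proposed with results of these data in view, and the values are a description to which no test was applied. With 1 library per antibody there was no replicate, so that differences between genes could be set against counting error only.

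ChIP-seq was carried out in NCI-H1299, a cell line labelled as human lung adenocarcinoma. The cells were labelled wild type, whereas the study describes H1299 as p53-null. They were untreated, grown in DMEM with FBS and fixed with formaldehyde. All of this is shared by both libraries used here, 1 immunoprecipitated for ZBTB11 (Bethyl A303-240A) and 1 with IgG (CST 2729S). The Input library was not analysed here. The deposited values describe peaks of chromatin and not transcripts, so that neither the cell type nor the expression of any Mediator gene could be checked against them. The ZBTB11 list held 346891 peaks on the main chromosomes, whereas the IgG list held peaks on 4 chromosomes only, and IgG could be read on chromosomes 1, 10 and 21 for just MED8 and MED18. The whole number of fragments at each summit (the pileup) and the local background were solved from the fold enrichment and the p-value of each peak. The lowest background was 1.35 fragments, so that a peak of 6 to 10 fragments rests on few counts.

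The sequence at the summits was read from the hg38 reference. Shown are all 14 sites, at 12 genes, that carry either the consensus that the study drew from its peaks, CCGGAAG or CAGGAAG (searched on both strands within 50 bp of the summit), or the shorter word CGGAAC, which was added after the sequences of the strongest peaks had been seen. A CGGAAC match is never part of a consensus match on the same strand, since they differ in the base after GGAA. Each site is written 5′ to 3′ on the strand that spells the word, with 11 bases on either side in lower case and the word in capitals.
MED23 (chr6:131628292-131628319, minus strand): ttctccacagaCGGAACcttctggtggc
CCNC (chr6:99568734-99568761, minus strand): ctaccgcgggcCGGAACttttgtcgata
MED18 (chr1:28329008-28329036, plus strand): tcggcttccgaCCGGAAGtgagaagagga
MED29 (chr19:39391388-39391416, minus strand): cgcgtagaccgCCGGAAGtgcgttacgac
MED15 (chr22:20507552-20507580, minus strand): cctcggccgagCCGGAAGtgaaggagggc
MED15, the match nearer the summit (chr22:20507582-20507610, minus strand): caggcccaaacCCGGAAGccgtccgcagt
MED17 (chr11:93784229-93784257, plus strand): accgtgattcaCCGGAAGcgctctaggga
MED20 (chr6:41921018-41921046, plus strand): tggcgtcgggcCAGGAAGgtggcagaatc
MED10 (chr5:6378541-6378569, minus strand): ccggacggaagCAGGAAGcgggagcgtag
MED24 (chr17:40021511-40021539, plus strand): tgctctttaggCAGGAAGgtggggagtag
MED22, the match at the summit (chr9:133348271-133348298, minus strand): gcggatacagcCGGAACctggctatagt
MED22, the other match (chr9:133348250-133348277, minus strand): ctatagtgccaCGGAACtacagctcact
MED31 (chr17:6651581-6651608, minus strand): gccgtggtttcCGGAACttcgcccgcgt
MED7 (chr5:157142862-157142890, minus strand): cccggaggagaCCGGAAGttggtttcggc
They are ordered by the pileup of the peak, and the sites at MED29, MED15, MED20 and MED24 read against the direction of the gene and the others along it.

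ZBTB11 peaks were listed near a TSS (within 3 kb) at all 33 Mediator genes, compared with 87.7% of protein-coding genes. With canonical starts alone, a peak was listed at 32 members, against 81.5% of protein-coding genes. A strong peak, defined as p 1e-05 or less, was present at 21 genes (63.6%, Wilson 95% interval 46.6 to 77.8), against 46.9% of protein-coding genes, so that the background share lay just inside the interval. A peak at q 0.05 or less was present at 28 genes (84.8%, interval 69.1 to 93.3), whereas the background was 55.3%. The median pileup over the 33 genes was 15 fragments, with quartiles of 9 and 69, compared with a median of 9 and quartiles of 5 and 25 over all protein-coding genes. These intervals and those below cover counting error only, and the protocol names no molecular identifiers.

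The Mediator genes were spread across almost the whole range of occupancy, from 6 to 499 fragments. A pileup of at least 100 fragments was found at 5 genes, MED23, CCNC, MED18, MED14 and MED29 (15.2%, interval 6.65 to 30.9), against 8.33% of protein-coding genes. By −log10 p, 6 members lay above the 90th percentile of protein-coding genes, 14 above the 75th and 24 above the median gene. The 3 strongest came from 3 different modules, the tail, the kinase module and the head.

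**Figure D1:**
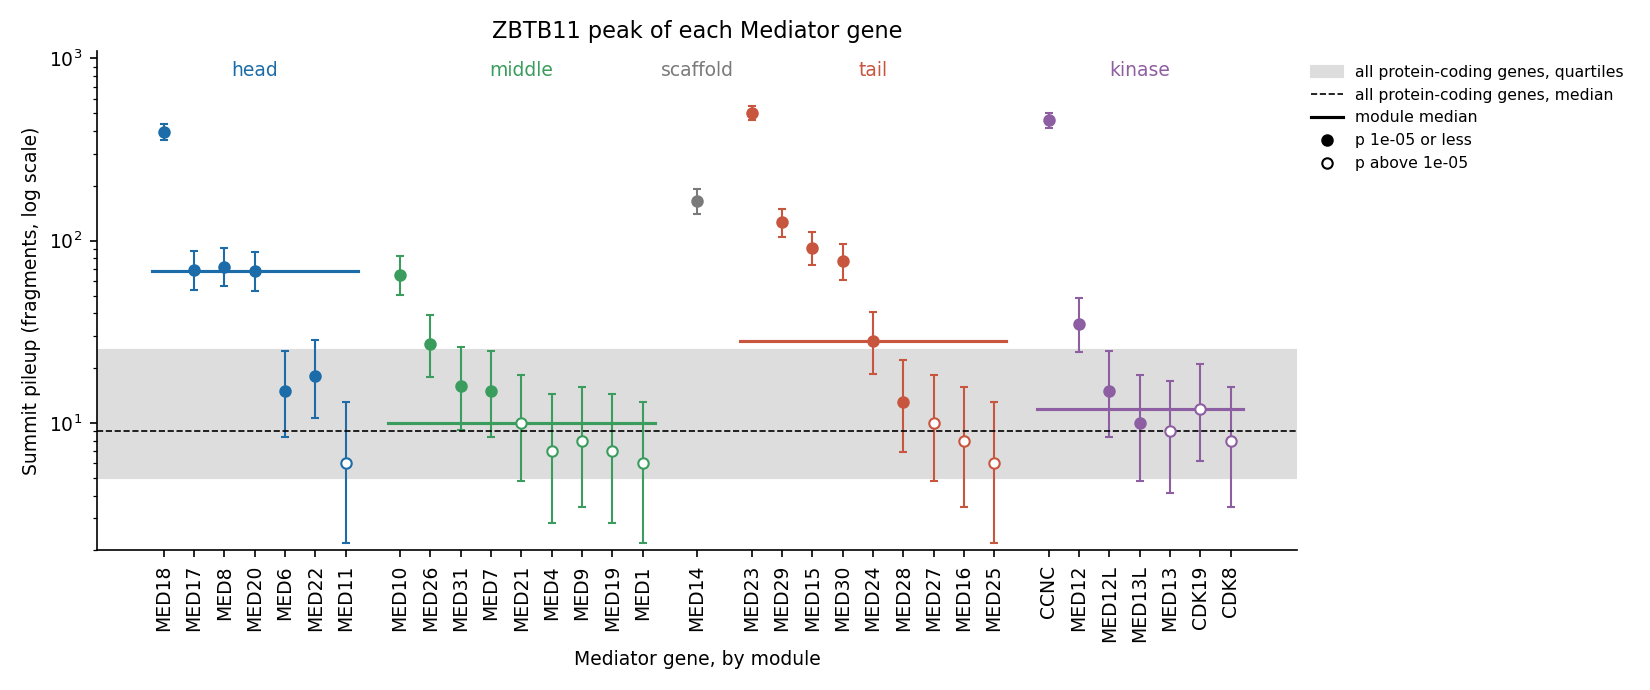
Summit pileup of the ZBTB11 peak of each Mediator gene (fragments, log scale), ordered within modules by −log10 p, with exact Poisson 95% intervals as bars and filled points for p 1e-05 or less. MED23 (499), CCNC (456) and MED18 (395) stand above the remaining genes, and the middle (median 10) and kinase (median 12) modules lie close to the median of all protein-coding genes (9, dashed line; quartiles of 5 and 25, grey).

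MED23, a tail subunit that receives signals from activators such as ELK1, had the largest peak of the complex, with 499 fragments (exact Poisson 95% interval 456 to 545) over a background of 24.4 and a −log10 p of 451. The peak spanned chr6:131627849-131628706, ranked at position 5 of all ZBTB11 peaks, and its summit lay 32 bp upstream of the TSS. CCNC, which encodes Cyclin C, the activating partner of the Mediator kinases, had 456 fragments with its summit 1 bp upstream of a TSS (chr6:99568166-99569108, rank 112). The intervals of these peaks overlapped, so that they were not distinguishable by counting error. MED18, a subunit of the movable jaw of the head, had 395 fragments (interval 357 to 436), which was below the interval of MED23, and its summit lay 1 bp downstream of a TSS (chr1:28328632-28329516).

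MED14, the scaffold without which head, middle and tail do not hold together, came next with 165 fragments (141 to 192) at chrX:40735284-40736135. Its summit lay 72 bp downstream of a TSS in a non-coding exon, and neither the consensus nor CGGAAC was found in the window. The fold enrichment did not separate these 4 genes, with 19.7 at MED23, 20.2 at CCNC, 21 at MED18 and 20.8 at MED14, although their pileups differed. The background of a peak rose together with its own fragments, from 1.35 at MED4 and MED1 to 24.4 at MED23, and the pileup was therefore used to compare genes.

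Of the head module, 6 of 7 genes had a strong peak (85.7%, interval 48.7 to 97.4), and its median pileup of 68 fragments was the highest of the 4 modules. Its peaks fell into a single very high one at MED18, a cluster of similar height and a lower group. MED8, MED17 (the central subunit of the head) and MED20 (the partner of MED18 in the jaw) had 72, 69 and 68 fragments and could not be told apart by counting error. MED22 had 18 and MED6 15, and MED11, which pairs with MED22 in the head, was lowest with 6 fragments (−log10 p 3.13) and its summit 377 bp upstream of the TSS.

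Of the middle module, 4 of 9 genes had a strong peak (44.4%, interval 18.9 to 73.3), a share near the background. MED10 was highest with 65 fragments at chr5:6378104-6378795, followed by MED26 with 27, MED31 with 16 and MED7 with 15. MED26 is the subunit that recruits elongation factors to the polymerase. The 5 genes without a strong peak were MED21 with 10 fragments, MED9 with 8, MED4 and MED19 with 7 each, and MED1 with 6, all at or around the median of protein-coding genes. MED1, which contacts nuclear receptors, was the sole member without a peak within 1 kb of a TSS. Its summit lay in an intron, 2771 bp upstream of the nearest TSS, an alternative one, and 17256 bp downstream of the canonical one. With canonical starts alone MED1 had no peak within 3 kb.

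Of the tail module, 6 of 9 genes had a strong peak (66.7%, interval 35.4 to 87.9). Besides MED23, MED29 had 126 fragments (105 to 150), MED15, which binds the sterol regulators of the SREBP family, had 91 (73.3 to 112), and MED30 had 77 (60.8 to 96.2). MED24 followed with 28 and MED28 with 13. MED27, MED16 and MED25 did not have a strong peak, with 10, 8 and 6 fragments, and MED25 (chr19:49818185-49818577), the target of the viral activator VP16, had the smallest −log10 p of the complex at 2.48 although its summit lay 2 bp from a TSS. By −log10 p the tail thus held both the first and the last of all members, although MED25 had as many fragments as MED1 and MED11. Its median was 28 fragments. The MED24 peak lay 98 bp upstream of an alternative TSS and 32896 bp from the canonical one, where the largest peak had 5 fragments, and with canonical starts alone the median of the tail was 13.

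Of the kinase module, 4 of 7 genes had a strong peak (57.1%, interval 25 to 84.2), and CCNC was the only one with more than 100 fragments. MED12, which activates the kinase through Cyclin C, had 35 fragments (24.4 to 48.7), and its paralogue MED12L had 15 (8.40 to 24.7), a ratio of 2.33 with a counting interval of 1.27 to 4.27. MED13, which anchors the kinase module to the core, had 9 and MED13L 10 (ratio 0.9, interval 0.366 to 2.21). The kinases CDK8 and CDK19 had 8 and 12 (ratio 0.667, interval 0.273 to 1.63). Of the 3 paralogue pairs, only MED12 and MED12L had a ratio interval that excluded equality, although their own intervals overlapped (24.4 to 48.7 and 8.40 to 24.7). These peaks were selected by size from 1 library, so that the ratios are a description and not a test. MED13L (−log10 p 5.11) was the member just inside the limit for a strong peak and MED27 (4.91) the one just outside. The median of the module was 12 fragments.

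Genes for the machinery that Mediator works with were listed by function and read in the same way. Of 43 genes for RNA polymerase II and the general transcription factors, 37 had a strong peak (86.0%, interval 72.7 to 93.4), with a median pileup of 42. All 10 genes of TFIIH, the factor that opens the promoter and phosphorylates the polymerase, had one, with a median of 142 fragments, and the list ran from GTF2H2 (−log10 p 418) down to TAF4 (2.57). Of 25 genes for functional partners of Mediator, 21 had a strong peak (84.0%, interval 65.3 to 93.6), from NELFB (444), a subunit of the pausing factor NELF, to KAT2A (1.90). The 14 elongation and pausing genes had a median of 102 fragments, the 7 cohesin genes 17 and the 4 acetyltransferase genes 6. The interval of the 33 Mediator genes overlapped those of both lists.

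**Figure D2:**
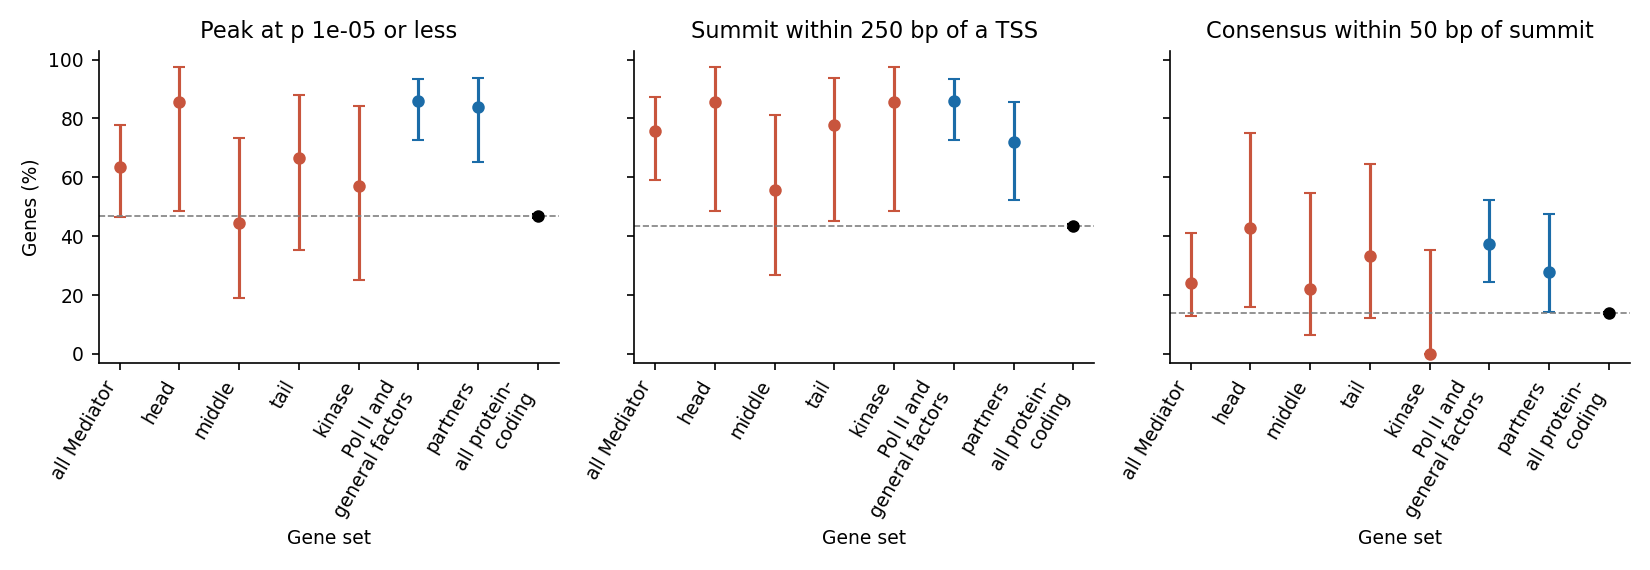
Share of genes (%) with a peak at p 1e-05 or less, with the summit within 250 bp of a TSS, and with the consensus within 50 bp of the summit, for all Mediator genes, 4 modules, 2 comparison lists and all protein-coding genes, with Wilson 95% intervals as bars. The module intervals are wide and overlap each other in all panels. The share of Mediator summits within 250 bp of a TSS (75.8%) lies above that of protein-coding genes (43.3%, dashed line). For RNA polymerase II and the general factors that share is 86.0%, and for the partners 72%.

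The Mediator summits lay close to TSSs. The median distance was 98 bp over the 33 genes and 258 bp over protein-coding genes with a peak, and 25 summits (75.8%, interval 59.0 to 87.2) were within 250 bp of a TSS, against 43.3% of protein-coding genes. The peak covered a TSS of its own gene at 28 of 33 (84.8%), against 49.1% of protein-coding genes. This was not particular to Mediator. For RNA polymerase II and the general factors the median distance was 25 bp, with 86.0% within 250 bp and 88.4% covering a TSS. For the partner genes these values were 115 bp, 72% and 80%. Here and below, shares of protein-coding genes are over all 20033 unless another set is named. Of these, 17575 had a peak near a TSS, and the others count as lacking a summit near a TSS, a consensus or a shared promoter. All 11 members with the largest −log10 p, from MED23 to MED20, had the summit within 189 bp of a TSS, whereas the distances of the members without a strong peak ran from 2 bp at MED25 to 2771 bp at MED1. In the annotation, 10 summits lay in a UTR, 5 in a coding exon, 2 in a non-coding exon, 8 in an intron and 8 upstream of the gene.

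**Figure D3:**
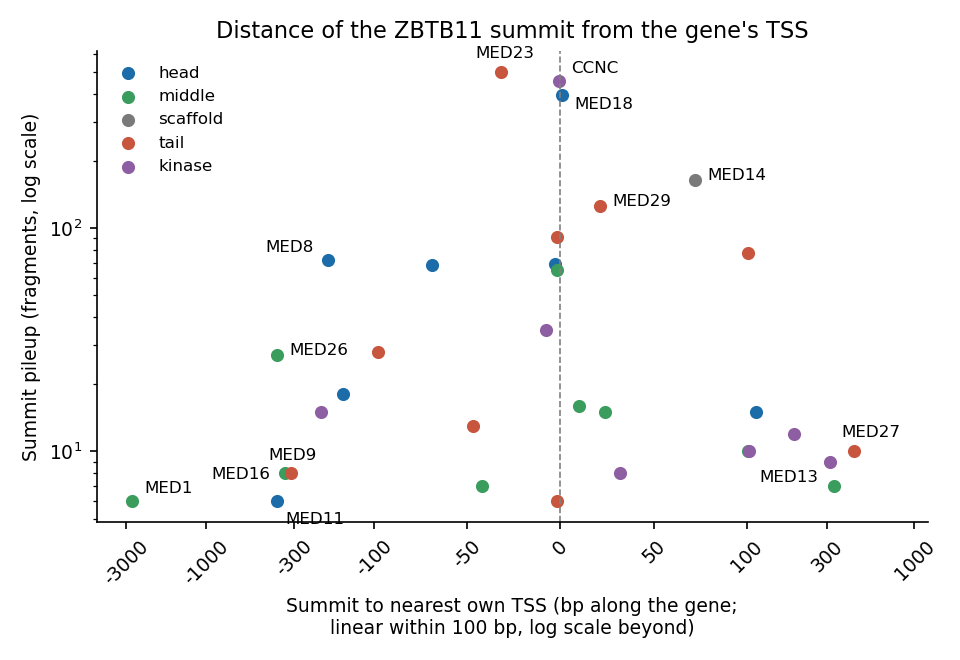
Distance of the ZBTB11 summit to the nearest TSS of its gene (bp, negative upstream; linear within 100 bp, log scale beyond) against summit pileup (fragments, log scale) for the 33 Mediator genes, coloured by module. The 3 highest points, MED23, CCNC and MED18, lie within 32 bp of a TSS, and MED1 is the one gene more than 1 kb away.

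Several of these promoters were shared with another gene. The summit had a protein-coding gene of the opposite strand starting within 1 kb at 10 of 33 members (30.3%, interval 17.4 to 47.3), compared with 14.7% of protein-coding genes. By module these were 4 head, 3 middle and 3 tail genes, and 0 of 7 kinase genes. The peak covered the TSS of the neighbour at 8 of the 10, so that the fragments cannot be assigned to 1 gene of the pair. ENPP3 started 168 bp from the MED23 summit, PAF1, an elongation factor gene, 279 bp from that of MED29, and TAF1D 131 bp from that of MED17, whose TSS was 10 bp from that of TAF1D. At MED22 the summit was nearer to the neighbour than to the member, at 32 bp from the ribosomal protein gene RPL7A and 153 bp from MED22. Without peaks that were as near or nearer to another protein-coding start, 18 members kept a strong peak. The share of protein-coding genes under this filter was not computed, so that this count has no background.

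The consensus CCGGAAG or CAGGAAG was found within 50 bp of the summit at 8 members (24.2%, interval 12.8 to 41.0), MED18, MED29, MED15, MED17, MED10, MED20, MED24 and MED7, against 13.9% of protein-coding genes. Of the RNA polymerase II and general factor genes 37.2% carried it, and of the partner genes 28%. In windows of equal length placed 500 bp to either side, it was found in 1 of 66 at the members (1.52%) and in 4.11% at protein-coding genes with a peak. All 8 members with the consensus had a strong peak (8 of 21, 38.1%), and the share among protein-coding genes with a strong peak was 25.2%. The consensus was spelled CCGGAAG at 5 genes and CAGGAAG at 3, and MED15 alone carried 2 matches. In the head 3 of 7 genes carried it, in the tail 3 of 9, in the middle 2 of 9 and in the kinase module 0 of 7, which allows a share of up to 35.4%. The consensus was derived by the study from the strong peaks of this library, so that its presence at strong peaks is not independent evidence. A match of these letters is a description of the sequence and was not tested as a binding site.

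The 2 strongest Mediator peaks did not carry the consensus within 50 bp of the summit. Of the 10 members with the largest −log10 p, it was missing at MED23, CCNC, MED14, MED30 and MED8. At MED23 and CCNC the window held CGGAAC instead, which differs from the last 6 bases of CCGGAAG in its final base. CGGAAC was also found at MED31 and, as a pair of matches, at MED22, so that 4 members (12.1%, interval 4.82 to 27.3) carried it, against 7.15% of protein-coding genes. No member carried both words, and 12 of 33 (36.4%) carried either, compared with 19.3% of protein-coding genes. All 5 CGGAAC matches read in the direction of the gene, whereas 4 of the 9 consensus matches did so.

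Across the distinct peaks of protein-coding genes, the shares of both words changed with the pileup. Of the 400 peaks with at least 300 fragments, 41.5% held the consensus and 50.8% (interval 45.9 to 55.6) held CGGAAC, compared with 3.25% and 1.75% in the windows 500 bp away. Of the 837 peaks with at least 100 and fewer than 300 fragments, 44.3% held the consensus and 19.0% CGGAAC. Below 10 fragments the shares were 5.13% and 2.11%, and none of the 9 members in this tier held either word. Of the 3 members with at least 300 fragments, MED23 and CCNC held CGGAAC and MED18 the consensus. CGGAAC was added after the sequences of the strongest peaks had been seen, and the study drew the consensus from high peaks of this library. The change of both shares with the pileup is therefore a description and not independent evidence.

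**Figure D4:**
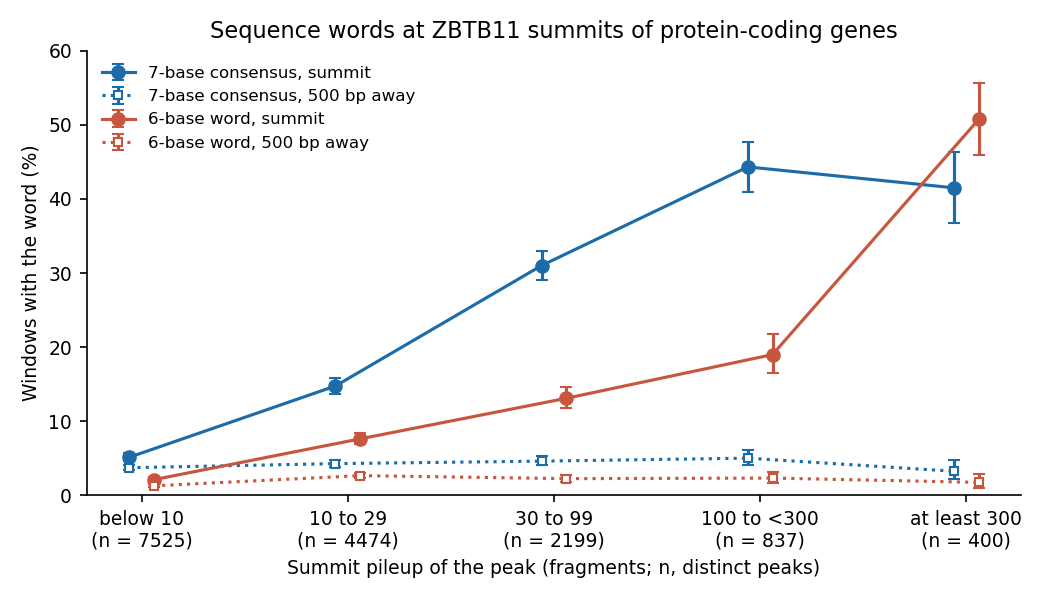
Share of windows (%) holding the 7-base consensus (CCGGAAG or CAGGAAG) or the 6-base word CGGAAC at the summit (solid lines) and 500 bp to either side (dotted lines), for the distinct ZBTB11 peaks of protein-coding genes in 5 tiers of summit pileup (fragments), with Wilson 95% intervals. CGGAAC was in 50.8% of the windows with at least 300 fragments, the tier of MED23, CCNC and MED18, and in 19.0% of those in the tier below. Both words were chosen from strong peaks of this library, so that the tiers are a description.

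Most matches lay on one side of the summit. Of all 14 matches of either word, 12 were upstream of the summit in the direction of the gene, 1 was at the summit and 1 downstream, whereas 49.6% of 4684 matches at protein-coding genes were upstream. All 9 consensus matches were upstream, by a median of 19 bp, in a search that extended to 50 bp. Of the 5 CGGAAC matches, 3 were upstream. MED15 and MED22 each gave a pair of matches, so that the matches were not all independent, and no interval was computed for this side. Relative to the nearest TSS the matches of either word fell on both sides, with 8 of 14 upstream (57.1%, interval 32.6 to 78.6) against 61.0% at protein-coding genes. The match at MED17 lay 1 bp downstream of a TSS, that at MED18 18 bp upstream and that at MED23 63 bp upstream. In the 300-base promoters of RefSeq (GRCh38.p14, 250 bases before to 50 after the start), 30 promoters of 25 Mediator genes could be matched, of which 13 held the consensus (43.3%, interval 27.4 to 60.8), against 21.8% of 35116 promoters. CGGAAC was in 10 of the 30 (33.3%), against 9.61%. The 35116 promoters belonged to 27305 genes, more than the 20033 protein-coding genes, so that this background is not restricted to protein-coding genes as the members are. Some members gave more than 1 promoter, for which the interval makes no allowance. By gene, the consensus was in a RefSeq promoter of 9 of the 15 matched members with a strong peak, among them MED23, where it lay outside the summit window, and of 3 of the 10 without one, CDK19, MED11 and MED19. The consensus was drawn from strong peaks of this library, so that this split is not independent evidence. No such split was made for other genes.

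Within the gene bodies, beyond 3 kb of their TSSs, 3 members (9.09%, interval 3.14 to 23.6) had a strong peak, against 6.57% of protein-coding genes. The long gene of MED12L (352 kb) held 54 peaks there, of which none was strong, and MED13L (320 kb) held 40. The 3 strong peaks were found once each at MED27 (−log10 p 5.03), MED29 (5.45) and MED12 (5.15). MED15 had 8 peaks near its 30 TSSs, of which 3 were strong.

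The IgG list gave the control for MED8 and MED18. Both had an IgG peak within 3 kb of a TSS, which 68.7% of 3011 protein-coding genes on chromosomes 1, 10 and 21 also had. At MED18 the IgG peak (chr1:28328619-28328924) overlapped the ZBTB11 peak and held 8 fragments over a background of 1.87 (−log10 p 3.84), compared with 395 fragments for ZBTB11. At MED8 the IgG peak held 5 fragments over 1.76, did not overlap the ZBTB11 peak and compared with 72. The aligned reads per library were not analysed, so that the fragments of ZBTB11 and IgG were not scaled to a common depth. Neither IgG peak was strong or reached q 0.05, and for the other 31 members the IgG background was not analysed here.

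The sequence at a summit was unique for most members. The central 31 bases of the summit had 1 exact copy in the genome at 31 of 33 members, 40 at MED16, where the U6 small nuclear RNA gene RNU6-9 starts, and 1323 at MED9. Both are members without a strong peak, and the part of repeated sequence in their values was not tested.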

How the data were processed

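Fragments of the ZBTB11 and IgG immunoprecipitations of NCI-H1299 chromatin (ChIP-seq) were sequenced. Both ends of each fragment were read, the reads were aligned to hg38 with BWA (per the labels and the study's methods), and the authors called peaks with MACS at p below 0.05 for each antibody separately. The release of MACS is uncertain because the layout is that of later releases. Per peak, the deposited values are the fold enrichment (a ratio of summit to local background), the −log10 of the p-value and of the q-value, and the summit position (in bp from the peak start).

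Groups were taken from the sample titles. Pileup and background were solved from fold enrichment and p-value, with fragments taken as Poisson around the background and 1 added to both as a pseudocount, and 100% of peaks were solved within 0.001 of the deposited −log10 p. The solver and the motif scan were tested on simulated data. Analyses used Python 3.11.15, pandas 2.3.3, scipy 1.17.1, pysam 0.24.0, samtools 1.23.1 and GENCODE release 44. The study's reporting summary gives the intended amount of sequencing, and the number of aligned reads per library was not analysed here. Peaks outside chromosomes 1 to 22, X and Y (1501 for ZBTB11) were left out.

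The members and gene lists were chosen with earlier results of these data known. Named in full were the largest and smallest −log10 p of each module and list, MED14, the paralogue pairs, members on chromosomes 1, 10 and 21, members without a strong peak, and members among the upper 10 without the consensus. Other members were named after their values were seen. Windows of 1 and 10 kb, canonical starts, other choices of the peak, stricter limits and other words were tried as alternatives.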

Additional observations from a re-analysis of the deposited data

How the results depend on the processing

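For 10 results, 56 values were recomputed under other settings. Of these, 51 stayed within 1.5 times (counts) or within the Poisson interval of the main value (medians), and 5 did not. The median over all members rose from 15 to 23 fragments with a 10 kb window, where that of protein-coding genes was 11. The median of the tail fell from 28 to 13 fragments with canonical transcript starts only, and to 13 with the peak whose summit was nearest the canonical start, since MED24 then had 5 fragments. Members with the consensus numbered 5 with CCGGAAG only and 4 with CGGAAC only. IgG peaks at MED8 and MED18 numbered 0 at q 0.05 or less. Members with a strong peak numbered 20 with canonical starts (background 43.4%), 23 within 10 kb (52.3%) and 15 at p 1e-10 or less (31.8%). They numbered 18 without peaks as near or nearer to another gene, a setting for which no background was computed. The CGGAAC settings and the last of these were chosen after seeing the data. Placing MED27 to MED30 in the head left both medians at 68 and 28. No paired analysis was possible because each antibody had 1 library, and no replicate could be left out. At a background of 1.35, peaks of 6 to 10 fragments have intervals too wide to be ordered.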
